A study of Homo sapiens with 6 samples.

Results

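CTGF, CYR61 and INHBA encode secreted proteins that act outside the cell, and their 3 rows were taken by gene name from a deposited table of raw counts for 2778 features. The table compares A375 cells that overexpress CYGB, labelled A375-hCYGB in its header (CYGB-OE, n = 3 libraries), with wildtype A375 cells (WT, n = 3 libraries). A375 is an established human melanoma line, and both groups were untreated and grown in the same serum-containing medium. The labels name no empty-vector control, and they do not say whether the CYGB-OE cells are 1 clone or a pool. Nor do they say that replicates are separate cultures; a p-value here therefore reflects variation among these libraries, which may be technical.

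CTGF (connective tissue growth factor, also named CCN2) and CYR61 (also named CCN1) belong to the CCN family of matricellular proteins, which sit in the extracellular matrix and signal through integrins and growth factor partners without building the matrix themselves. Their genes are widely used readouts of YAP and TAZ, the coactivators that the Hippo kinases hold out of the nucleus and that bind DNA through TEAD factors; CTGF also responds to TGF-beta through SMAD proteins, and CYR61 is an early serum-response gene. INHBA encodes the inhibin beta A chain, whose dimer is activin A, a ligand of the TGF-beta superfamily that signals through SMAD2 and SMAD3 and is bound by follistatin and its relatives.

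The table leaves out log2 ratios of the group means from -0.995 to 0.995. It is thus a subset chosen at about a 2-fold difference between these same libraries, and genes outside it were not analysed here. A call below is therefore not independent evidence of a difference: 99.8% of the 2468 features tested passed the threshold, an adjusted p under 0.05 in edgeR's quasi-likelihood test. Its columns sum to 1533260 to 2801576 counts, which are not library depths, since only a subset of features is summed. CYGB itself, as the check of the labels, had 22518, 20740 and 26267 counts in CYGB-OE replicates 1 to 3, against 33, 47 and 37 counts in WT replicates 1 to 3. CYGB-OE replicate 1 stood apart, differing from the mean of the other CYGB-OE libraries by a median of 0.38 log2 units, where CYGB-OE replicates 2 and 3 each differed by 0.23 and each WT library by 0.11 when compared in the same way. Of 10 melanocyte markers, 4 were in the table, and the 3 that were tested were called lower, as were 70.9% of all features tested. Normalized counts below are counts divided by the scaling factor of their library. EDNRB averaged 637 normalized counts in CYGB-OE and 1804 in WT, S100A1 averaged 2021 in CYGB-OE and 4361 in WT, TYRP1 averaged 4.26 in CYGB-OE and 25.0 in WT, and DCT had no count in CYGB-OE. In these bulk libraries, fewer cells that make a transcript and less of it per cell cannot be told apart.

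Both CCN genes were higher in CYGB-OE, and INHBA was lower. CTGF averaged 1126 ± 51.6 normalized counts in CYGB-OE and 489 ± 277 in WT, a 2.30-fold difference of means. CYR61 averaged 2576 ± 437 in CYGB-OE and 1265 ± 678 in WT, a 2.04-fold difference. INHBA averaged 4744 ± 3339 in CYGB-OE and 24582 ± 1473 in WT, 5.18-fold lower in CYGB-OE (SD, n = 3 each).

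**Figure D1:**
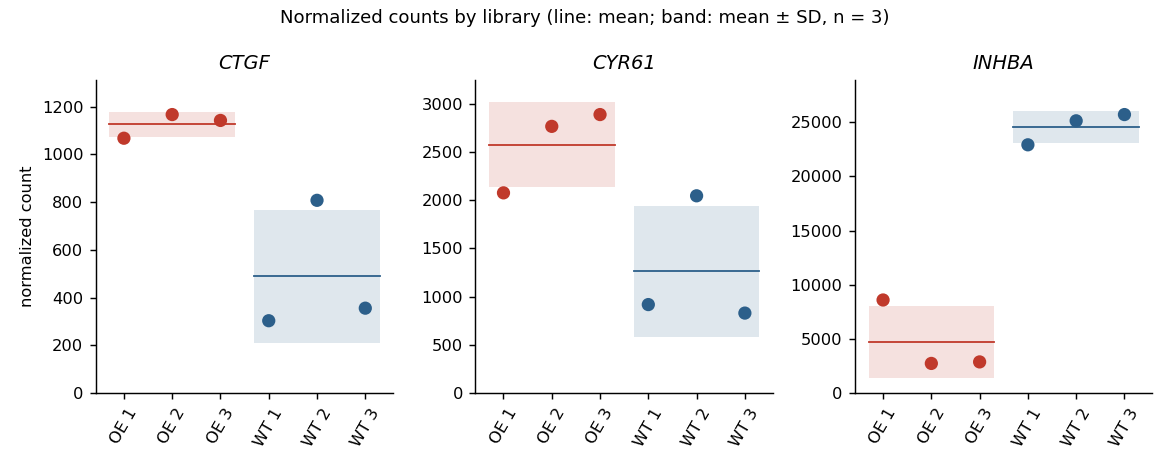
Normalized counts (y axis, linear from 0) of CTGF, CYR61 and INHBA in each CYGB-OE library (OE, red) and each WT library (blue), with the group mean as a line and the mean ± SD as a band. WT replicate 2 lies well above the other WT libraries for CTGF and CYR61, and CYGB-OE replicate 1 lies above the other CYGB-OE libraries for INHBA.

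CTGF (ENSG00000118523) lies on GRCh38 chromosome 6, 131948176 to 131951373, minus strand, and is protein-coding with 2339 exonic bases. The promoter window of RefSeq (GRCh38.p14, chr6:131951323-131951622, minus strand, 250 bases before to 50 after the start) is shown because it holds repeated copies of the TEAD core motif. Capitals mark GGAATG, the core bound by TEAD factors. They also mark the SMAD box CAGAC and the core promoter element TATAAA.
CTGF promoter: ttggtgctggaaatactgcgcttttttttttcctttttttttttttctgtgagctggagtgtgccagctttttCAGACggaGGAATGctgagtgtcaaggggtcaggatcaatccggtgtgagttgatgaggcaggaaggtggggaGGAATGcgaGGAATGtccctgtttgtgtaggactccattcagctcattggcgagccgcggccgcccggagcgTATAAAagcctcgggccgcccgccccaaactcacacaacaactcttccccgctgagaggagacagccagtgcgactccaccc
GGAATG began 169, 104 and 95 bases before the start, CAGAC 177 bases before it and TATAAA 32 bases before it; each motif was searched on both strands, and the matches did not overlap. Of 35116 RefSeq promoter windows of this length, 14.0% held GGAATG and 0.128% held 3 or more copies, 45.3% held CAGAC and 11.5% held TATAAA. The AP-1 motif TGANTCA, held by 7.71% of windows, was not in this one. The promoter reference used here held no window for CYR61, so motifs were not searched for that gene.

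CTGF had 1001, 1045 and 1257 counts in CYGB-OE replicates 1 to 3, against 276, 1022 and 335 counts in WT replicates 1 to 3. After scaling these were 1068, 1167 and 1142 normalized counts in CYGB-OE and 304, 808 and 356 in WT. The 3 CYGB-OE libraries lay close together, and WT replicate 2 lay between them and the other WT libraries; normalized counts of the groups did not overlap, as in 98.3% of all features, while the raw counts did overlap. In edgeR's test the log2 fold change was 1.20 (SE 0.36, adjusted p = 0.0135), which ranked 494th in size among the 713 features called higher. Features called higher made up 28.9% of those tested. Without WT replicate 2 the log2 fold change of CTGF was 1.77, and without CYGB-OE replicate 1 the call was lost (log2 fold change 1.21, edgeR adjusted p = 0.0990). The call was also lost when p-values were adjusted over all 58780 annotated genes (edgeR adjusted p = 0.321). With that adjustment 19.4% of the features tested were called higher and 54.3% lower. It counted every annotated gene as a test, although genes outside the features tested had no p-value here. GENCODE places AL133346.1 on the opposite strand over this gene, and the sources used here do not give the strand setting of the counting, so reads of the pair cannot be told apart.

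CYR61 (ENSG00000142871) lies on GRCh38 chromosome 1, 85580761 to 85583962, plus strand, with 2455 exonic bases, and no other annotated gene overlaps it. It had 1946, 2476 and 3177 counts in CYGB-OE replicates 1 to 3, against 835, 2588 and 781 counts in WT replicates 1 to 3, or 2076, 2765 and 2887 normalized counts in CYGB-OE and 918, 2045 and 830 in WT. The lowest CYGB-OE library and the highest WT library were nearly level, so that the groups only just failed to overlap, where 98.3% of all features did not overlap. In the same edgeR test the log2 fold change was 1.02 (SE 0.36, adjusted p = 0.0250), which ranked 678th of the 713 features called higher and close to the edge of the table's selection. The call was lost when CYGB-OE replicate 1, 2 or 3 was left out (edgeR adjusted p = 0.103, 0.0522 and 0.0635) and when WT replicate 1 or 3 was left out (edgeR adjusted p = 0.0626 and 0.0574). Without WT replicate 2 it held, with a log2 fold change of 1.56. Adjusted over all annotated genes, the p was 0.595.

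INHBA (ENSG00000122641) lies on GRCh38 chromosome 7, 41667168 to 41705834, minus strand, with 8302 exonic bases. Its RefSeq promoter window (GRCh38.p14, chr7:41703041-41703340, minus strand), which lies inside that annotated span, is shown for comparison with that of CTGF, with the same motifs in capitals.
INHBA promoter: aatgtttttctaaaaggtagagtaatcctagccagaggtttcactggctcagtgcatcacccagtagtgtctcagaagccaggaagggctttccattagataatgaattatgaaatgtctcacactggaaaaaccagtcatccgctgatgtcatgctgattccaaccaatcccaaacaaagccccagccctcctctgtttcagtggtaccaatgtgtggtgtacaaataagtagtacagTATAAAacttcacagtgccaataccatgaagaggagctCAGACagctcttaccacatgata
TATAAA began 11 bases before the start and CAGAC at base 28 after it. The letters GGAATG and TGANTCA are not in this window on either strand.

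INHBA had 8061, 2459 and 3176 counts in CYGB-OE replicates 1 to 3, against 20836, 31792 and 24185 counts in WT replicates 1 to 3. The normalized counts were 8599, 2746 and 2886 in CYGB-OE and 22914, 25127 and 25704 in WT. Every CYGB-OE library lay below every WT library, and the groups likewise did not overlap in 98.3% of all features. CYGB-OE replicate 1 lay well above the other CYGB-OE libraries. By edgeR the log2 fold change was -2.37 (SE 0.49, adjusted p = 0.00385), ranked 297th in size among the 1749 features called lower, which were 70.9% of those tested. Without CYGB-OE replicate 1 it was -3.13 (SE 0.07), and it kept its call without each of the other libraries. The call was lost when adjusted over all annotated genes (adjusted p = 0.0916) and when TMM factors were computed over the whole table (log2 fold change -1.17, edgeR adjusted p = 0.0800). INHBA-AS1, an antisense transcript, overlaps INHBA on the opposite strand, so its reads cannot be told apart from those of INHBA without the strand setting.

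**Figure D2:**
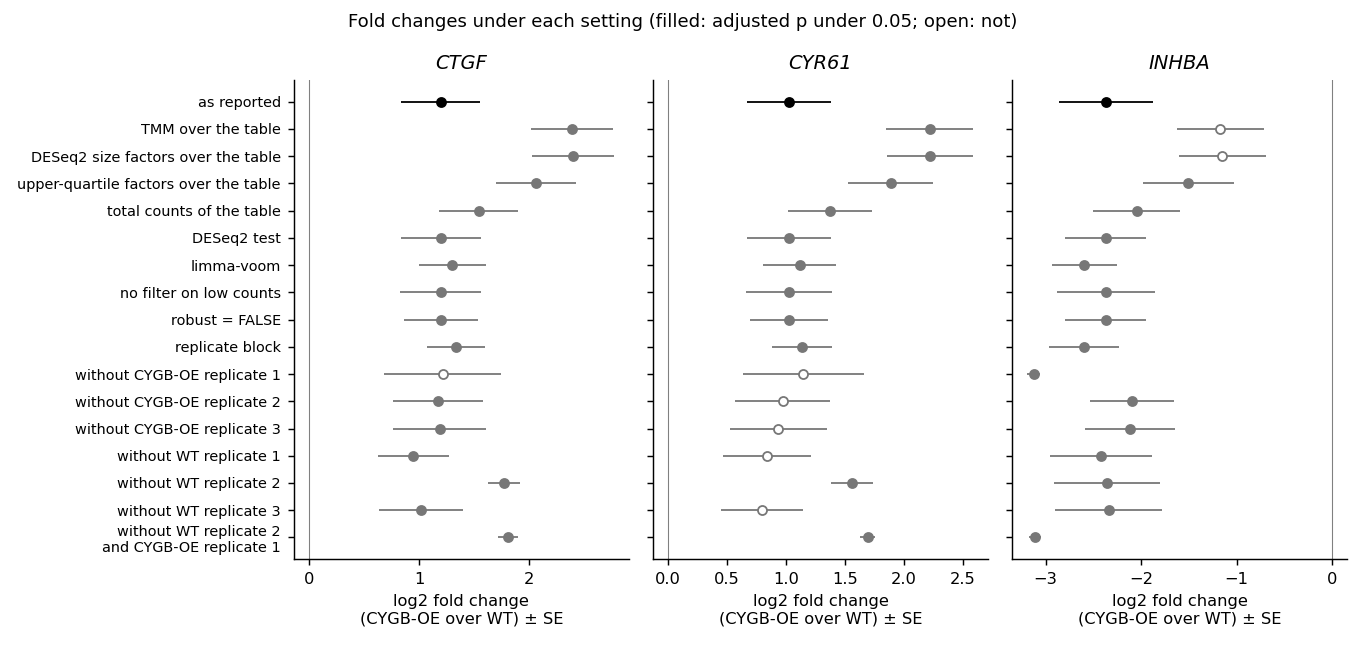
Log2 fold change, CYGB-OE over WT, with its SE (x axis) for CTGF, CYR61 and INHBA under each scaling, test and left-out library (y axis); filled points have an adjusted p under 0.05. CTGF and CYR61 stay above 0 and INHBA below 0 in each setting drawn, and 5 open points stand for CYR61 against 1 for CTGF and 2 for INHBA.

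Per kilobase of exon, the order of the genes differed between the groups. INHBA had 571 ± 402 normalized counts per kilobase in CYGB-OE and 2961 ± 177 in WT (SD, n = 3 each). CYR61 had 1049 ± 178 in CYGB-OE and 515 ± 276 in WT, and CTGF had 481 ± 22.1 in CYGB-OE and 209 ± 119 in WT. In WT the level per kilobase was highest for INHBA and lowest for CTGF in each library, although CYR61 and CTGF overlapped across libraries, at 338 to 833 for CYR61 and 130 to 345 for CTGF. In CYGB-OE replicates 2 and 3 the order was CYR61, CTGF and INHBA, with INHBA at 331 and 348 per kilobase. In CYGB-OE replicate 1 INHBA, at 1036 per kilobase, was still above CYR61, at 846. Among the 2611 features with an annotated exon length, the mean level of INHBA per kilobase ranked 116th in CYGB-OE and 33rd in WT, that of CYR61 70th in CYGB-OE and 181st in WT, and that of CTGF 137th in CYGB-OE and 387th in WT.

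Ratios of these genes inside a library do not depend on how libraries are scaled to one another. CTGF had 0.515, 0.422 and 0.396 counts for each count of CYR61 in CYGB-OE replicates 1 to 3, against 0.331, 0.395 and 0.429 in WT replicates 1 to 3. The ranges overlapped, and the mean log2 ratios, -1.18 ± 0.20 in CYGB-OE and -1.39 ± 0.19 in WT (SD, n = 3 each), differed by 0.21 (exact permutation test, two-sided, p = 0.4). WT replicate 2, in which both CCN genes were high, thus had a CTGF to CYR61 ratio inside the range of the other WT libraries. INHBA had 8.05, 2.35 and 2.53 counts for each count of CTGF in CYGB-OE, against 75.4, 31.1 and 72.1 in WT. The log2 difference was -3.93, or 15.2-fold lower in CYGB-OE, with no overlap between groups (exact permutation test, two-sided, p = 0.1, the smallest that 3 against 3 libraries allow). Against CYR61, INHBA had 4.14, 0.993 and 0.9997 counts per count in CYGB-OE and 24.9, 12.3 and 30.9 in WT, a log2 difference of -3.72 (exact permutation test, two-sided, p = 0.1). Adjusted over the 3 ratios, the exact permutation p-values were 0.4, 0.15 and 0.15 for CTGF to CYR61, INHBA to CTGF and INHBA to CYR61. The table holds only features about 2-fold apart between these same libraries. A ratio of a gene that was lower to 1 that was higher was therefore expected to differ. For INHBA, the differences and the lack of overlap are thus not independent evidence.

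**Figure D3:**
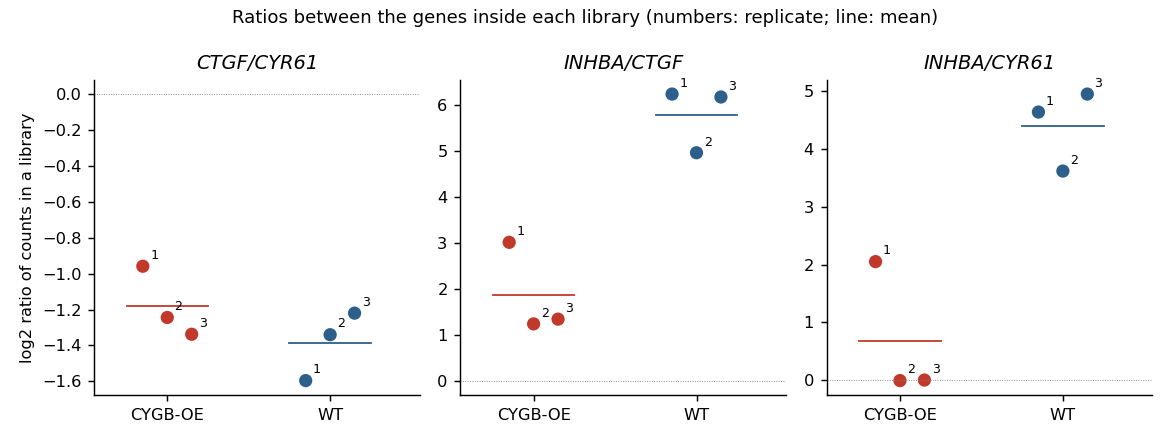
Log2 ratio of the counts of 2 genes inside each library (y axis) for CYGB-OE (red, left) and WT (blue, right), with replicate numbers beside the points and group means as lines. The CTGF to CYR61 ratios of the groups overlap, and the INHBA ratios of CYGB-OE lie below those of WT.

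The libraries that stood apart were not the same for the CCN genes and for INHBA. In WT replicate 2, CTGF was 2.45-fold and CYR61 2.34-fold above the mean of WT replicates 1 and 3, where the median size of this deviation over 1496 features with a mean of at least 50 normalized counts was 0.11 log2 units. INHBA was 1.04-fold above it in that library. The deviations of CTGF and CYR61, 1.29 and 1.23 log2 units, ranked 11th and 14th in size of the 1496 features. JUNB, an AP-1 subunit and immediate-early gene, deviated by 0.96 in that library, and RGS2, a regulator of G-protein signalling, by 0.94; both genes were chosen after their values were seen. JUNB was lower in CYGB-OE, at 6134, 3292 and 3559 normalized counts in CYGB-OE replicates 1 to 3 against 10107, 19017 and 9476 in WT replicates 1 to 3. RGS2 was higher in CYGB-OE, at 2865, 4878 and 5021 normalized counts against 398, 818 and 457 in WT.

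In CYGB-OE replicate 1, INHBA was 3.05-fold above the mean of replicates 2 and 3 on the log scale, which ranked 59th in size of 1496 features, against a median size of 0.38 log2 units. CTGF and CYR61 were 0.925-fold and 0.735-fold of it there. CYGB itself did not set this library apart, with 24020, 23160 and 23871 normalized counts in CYGB-OE replicates 1 to 3.

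**Figure D4:**
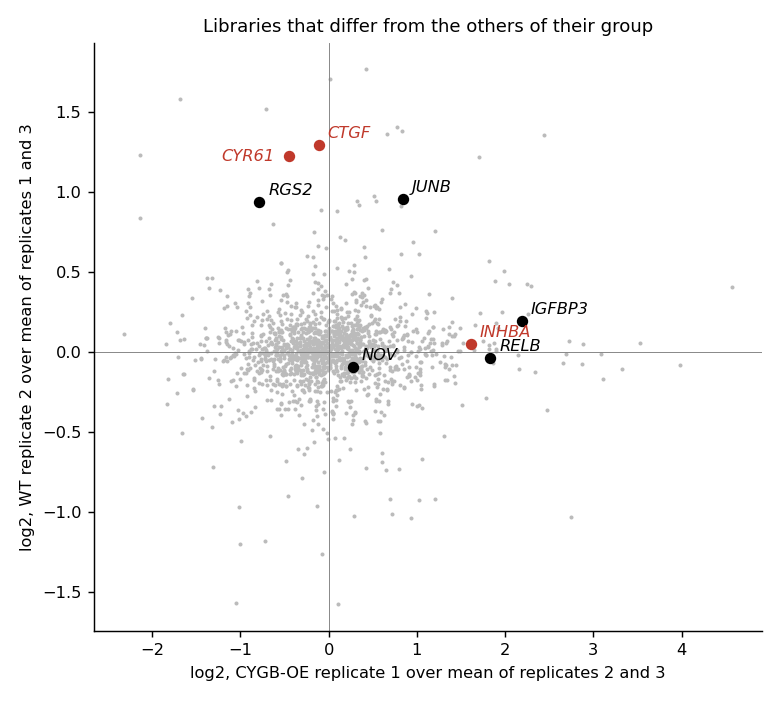
Each grey point is 1 of 1496 features with a mean of at least 50 normalized counts; the x axis gives CYGB-OE replicate 1 over the mean of replicates 2 and 3, and the y axis WT replicate 2 over the mean of replicates 1 and 3, both in log2 units. CTGF (1.29) and CYR61 (1.23) lie above most points on the y axis, where they rank 11th and 14th in size, and INHBA lies to the right of most points on the x axis, where it ranks 59th.

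The genes with the pattern most like each one were sought among 1414 other named genes, by the root mean square difference of log2 normalized counts centred on WT over the 6 libraries. For CTGF the nearest were SNORD101 (0.21), CYR61 (0.21) and C1orf53 (0.25). For CYR61 they were CTGF (0.21), SNORD100 (0.25) and TRIL (0.28). For INHBA they were CD82, a tetraspanin (0.10), RELB, an NF-kB subunit (0.11), and ESM1, a secreted proteoglycan (0.14). RELB had 1347, 363 and 394 normalized counts in CYGB-OE replicates 1 to 3, against 3709, 3557 and 3599 in WT replicates 1 to 3. This is the shape of INHBA, with a high CYGB-OE replicate 1 and level WT libraries. CTGF and INHBA differed by 2.87 on the same measure. The 2 SNORD genes had far fewer counts than CTGF and CYR61. SNORD101 had 88.5, 89.3 and 76.3 normalized counts in CYGB-OE replicates 1 to 3, against 24.2, 54.5 and 35.1 in WT replicates 1 to 3. SNORD100 had 77.9, 117 and 125 against 31.9, 68.0 and 46.8. Where their reads come from in these poly(A) libraries was not tested.

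Of 6 CCN genes, 3 were in the table and all 3 were called higher, where 28.9% of all features tested were called higher. Their median log2 fold change was 1.20, against -1.29 over all features tested. CTGF and CYR61 are themselves among these 3, so the count adds little to their own results. The other one was NOV (also named CCN3), a CCN protein with roles in cell adhesion and growth control. NOV had 447, 312 and 439 normalized counts in CYGB-OE replicates 1 to 3, against 151, 134 and 137 in WT replicates 1 to 3. Its groups were far apart and no WT library stood out, and edgeR gave a log2 fold change of 1.51 (SE 0.18, adjusted p = 7.13e-05). It is the CCN gene that kept its call when adjusted over all annotated genes (adjusted p = 0.00170).

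Of 22 genes of a YAP/TAZ target signature, 4 were in the table, and 2 rose and 2 fell; the pair that rose was CTGF and CYR61. IGFBP3, a secreted carrier of insulin-like growth factors, had 3371, 720 and 755 normalized counts in CYGB-OE replicates 1 to 3, against 6468, 7334 and 6349 in WT replicates 1 to 3. As for INHBA, CYGB-OE replicate 1 was the CYGB-OE library nearest to WT, and the log2 fold change was -2.06 (edgeR adjusted p = 0.0219). That library was nearest to WT in 36.8% of the 1088 features called lower with a mean of at least 50 normalized counts. IGFBP3 lost its call under TMM over the table (-0.85, edgeR adjusted p = 0.323), DESeq2 size factors (-0.83), upper-quartile factors (-1.19) and adjustment over all annotated genes. NUAK2, a kinase that YAP induces, averaged 202 normalized counts in CYGB-OE and 627 in WT, with a log2 fold change of -1.64. The signature had a median log2 fold change of -0.31, against -1.29 over all features tested, of which 28.9% were called higher and 70.9% lower. Of 25 Hippo kinases and scaffolds, 3 were in the table and all 3 were called lower, with a median of -1.64, where 70.9% of all features tested were called lower. They were NUAK2, the atypical cadherin DCHS1 at -1.68 and the scaffold WWC3 at -1.15. Under TMM over the table none of the 3 kept its call, with log2 fold changes of -0.44 for NUAK2, -0.48 for DCHS1 and 0.052 for WWC3. None of 10 YAP/TAZ, TEAD and VGLL genes were in the table, so their levels were not analysed here.

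Among the TGF-beta superfamily ligands, 6 of 33 were in the table, 1 higher and 5 lower, with a median log2 fold change of -1.37; this split is near that of all features tested, 28.9% higher and 70.9% lower, with a median of -1.29. INHA, the alpha chain that pairs with INHBA to form inhibin, had 93.9, 40.2 and 34.5 normalized counts in CYGB-OE replicates 1 to 3, against 188, 121 and 162 in WT replicates 1 to 3. Like INHBA, it was least low in CYGB-OE replicate 1, and its log2 fold change was -1.48. Of features called lower with a mean of at least 50 normalized counts, 36.8% were least low in that library. The log2 fold change was -1.57 for INHBE, another inhibin beta chain, -1.27 for BMP4, a bone morphogenetic protein, and -1.10 for GDF15, a stress-induced ligand. Under TMM over the table all 5 lower calls were lost, INHBA among them, with log2 fold changes of -0.28 for INHA, -0.37 for INHBE, -0.067 for BMP4 and 0.097 for GDF15. AMH, the anti-Muellerian hormone gene, was the one called higher, at 1.36.

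The 1 receptor and the 1 SMAD gene of the family that were in the table were called lower, as were 70.9% of all features tested. ACVR1C, a type I receptor for activin and nodal, was the 1 listed receptor of 14, at 13.0 normalized counts in CYGB-OE and 35.0 in WT. Its log2 fold change was -1.39, which became -0.20 and lost its call under TMM over the table. SMAD3, which carries activin and TGF-beta signals to the nucleus, was the 1 of 8 SMAD genes. It had 5021, 3229 and 3293 normalized counts in CYGB-OE replicates 1 to 3, against 8339, 9033 and 9266 in WT replicates 1 to 3. By edgeR it changed by -1.21 log2 units (SE 0.17, adjusted p = 0.000197), which became -0.0059 under TMM and 0.0054 with DESeq2 size factors over the table, without a call.

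Of 24 inhibitors and latency proteins, 6 were in the table and all 6 were called lower, with a median log2 fold change of -1.22, against 70.9% called lower and a median of -1.29 over all features tested. Under TMM over the table CHRD and LRRC32 kept their calls, while LTBP4, BAMBI and FSTL1 lay above 0 without one. CHRD had only 2, 5 and 4 counts in CYGB-OE replicates 1 to 3, against 39, 28 and 19 in WT replicates 1 to 3. LRRC32 had 1, 3 and 3 counts against 24, 24 and 16, so both changes rest on few counts. FSTL3, a follistatin-like protein that binds activin, had 775, 606 and 705 normalized counts in CYGB-OE replicates 1 to 3, against 1765, 1809 and 1599 in WT replicates 1 to 3. Its log2 fold change was -1.31 (SE 0.12), but -0.11 under TMM (edgeR adjusted p = 0.541) and -0.10 with DESeq2 size factors (edgeR adjusted p = 0.598), where the call was lost. BAMBI, a decoy receptor, had 1045, 476 and 485 in CYGB-OE and 1296, 1494 and 1224 in WT. CYGB-OE replicate 1 lay nearest to WT, as in 36.8% of features called lower with a mean of at least 50 normalized counts. The log2 fold changes were -1.13 for LTBP4, a latent TGF-beta binding protein, -1.03 for FSTL1, a secreted follistatin-like protein, -2.86 for CHRD, which binds bone morphogenetic proteins, and -3.05 for LRRC32, which docks latent TGF-beta on the cell surface.

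The table held 8 of 32 TGF-beta target genes, of which 7 passed the filter on low counts, 2 higher and 5 lower, with a median log2 fold change of -1.57; the split is that of all features tested, 28.9% higher and 70.9% lower. CTGF and COL1A2, a type I collagen chain, were the pair that rose. ACTA2, smooth muscle actin, averaged 223 normalized counts in CYGB-OE and 897 in WT (log2 fold change -2.01), LMCD1, a LIM-domain protein, 626 in CYGB-OE and 1934 in WT (-1.63), and PDGFB, a growth factor chain, 27.5 in CYGB-OE and 177 in WT (-2.68). JUNB had a log2 fold change of -1.57, which became -0.38 and lost its call under TMM over the table. Of 9 fibroblast markers, 2 were in the table, COL1A2 and COL3A1, whose summed level was 38.4 to 193 normalized counts in CYGB-OE libraries and 1.10 to 3.95 in WT libraries, with COL1A2 at no count in WT replicate 1 and COL3A1 at none in WT replicate 3. Among the CYGB-OE libraries the summed level was lowest in replicate 1. CTGF was also lowest there, at 1068 normalized counts against 1167 and 1142 in CYGB-OE replicates 2 and 3. CYR61 was lowest there too, at 2076 against 2765 and 2887. These deviations were small for CTGF, at -0.11 log2 units, and -0.44 for CYR61, against a median size of 0.38. They ranked 1266th and 654th in size of 1496 features. Of features called higher with a mean of at least 50 normalized counts, 35.6% were lowest in that library. The part of these marker genes in the CCN levels was not tested.

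**Figure D5:**
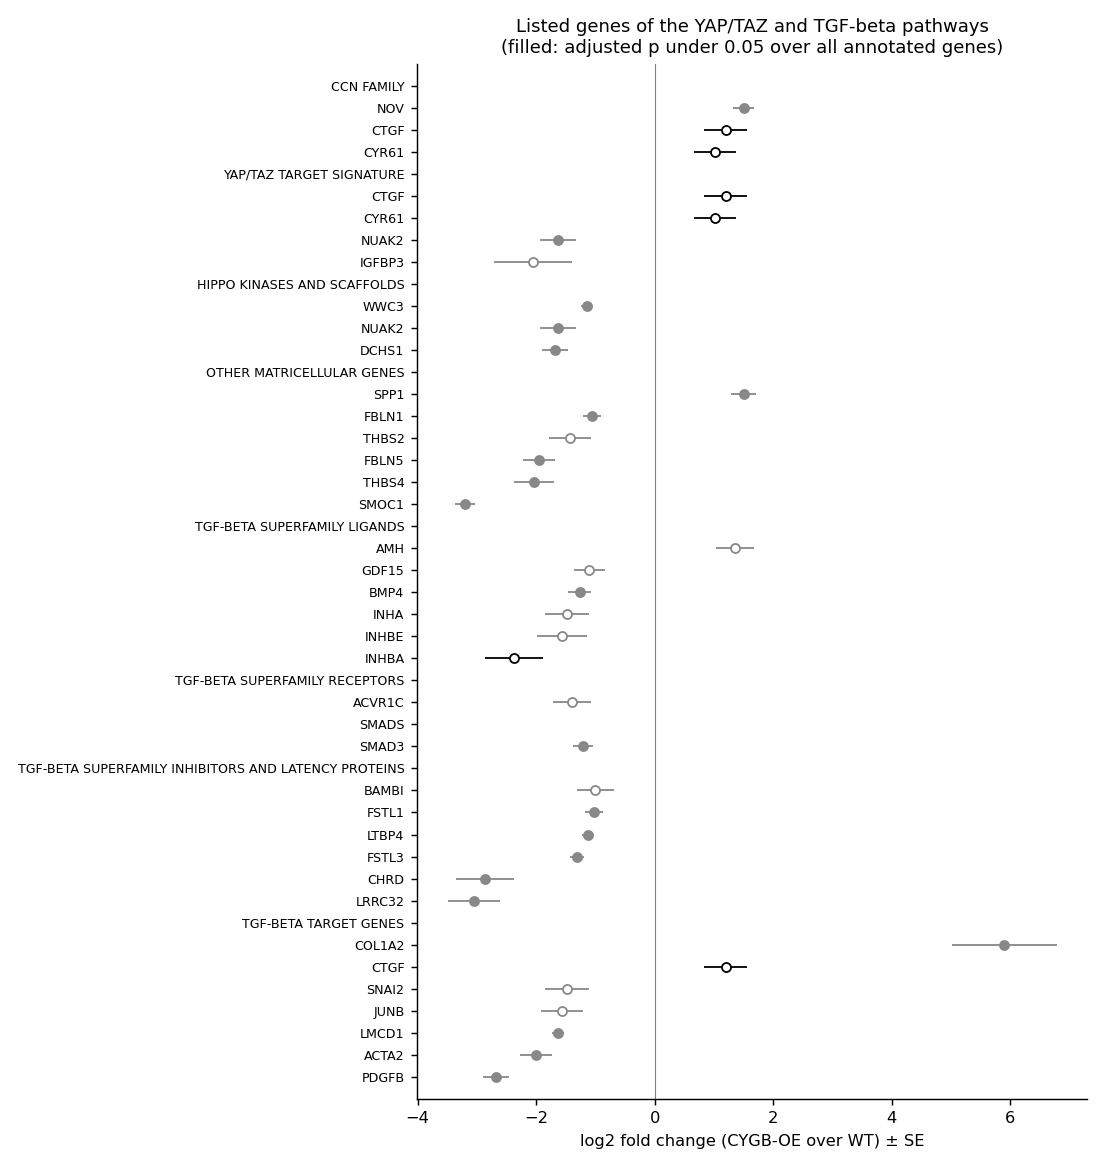
Log2 fold change, CYGB-OE over WT, with its SE (x axis) for the tested genes of each list (y axis; list names in capitals; a gene in several lists is drawn in each). CTGF, CYR61 and INHBA are in black, and their open points show that they passed over the table, with adjusted p-values of 0.0135, 0.0250 and 0.00385, but not over all annotated genes.

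Of 16 other matricellular genes, 6 were in the table, 1 higher and 5 lower, with a median log2 fold change of -1.69; this split is close to the 28.9% higher and 70.9% lower of all features tested. SPP1, which encodes osteopontin, had 469, 760 and 845 normalized counts in CYGB-OE replicates 1 to 3, against 225, 256 and 250 in WT replicates 1 to 3 (log2 fold change 1.504, SE 0.21). SMOC1, a calcium-binding matricellular protein, averaged 60.9 in CYGB-OE and 562 in WT, with a log2 fold change of -3.20. The thrombospondins THBS2 and THBS4 were at -1.42 and -2.04, and the fibulins FBLN5 and FBLN1 at -1.95 and -1.06, and under TMM over the table THBS2 (-0.22), THBS4 (-0.84) and FBLN1 (0.14) lost their calls. With the scaling used here, the higher calls covered the 3 CCN genes and SPP1, and the lower calls the listed thrombospondins, fibulins and SMOC1. Under TMM and under DESeq2 size factors, only 2 of these 5 lower calls were left, those of SMOC1 and FBLN5. Whether the direction of change goes with the class of protein was not tested.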

How the data were processed

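Poly(A) RNA of 6 libraries was sequenced, per the labels' protocols. The authors deposited raw counts per feature, 1 column per library, per the file headers; the submitters' processing notes name Trimmomatic 0.36, STAR 2.5.2b, featureCounts, Subread 1.5.2 and GRCh38. The sources used here do not name the annotation; positions and exon lengths come from GENCODE release 29, which held 2611 of 2615 Ensembl identifiers. Unnamed loci held 1.25% to 1.64% of counts.

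Features were tested two-sided with glmQLFit and glmQLFTest, the quasi-likelihood functions of edgeR 4.0.16 in R 4.3.3, on all features passing filterByExpr (minimum count 10), with robust empirical Bayes, group as the only term and Benjamini-Hochberg adjustment over the features tested. Because the table is a selection, TMM was run separately in CYGB-OE and in WT, and the groups were then aligned at the middle of the empty band of log2 ratios, 1.99 wide; a selection that was not symmetric would move it. Standard errors come from the F statistic. DESeq2 1.42.0 and limma 3.58.1 were alternatives. The scripts were tested on simulated data. Members and lists were chosen with earlier results of these data known. From a list with over 6 genes in the table, the 6 most abundant may be named. Equal replicate numbers do not come from a shared source in the labels. Library pairs differed by more than sampling noise.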

Additional observations from a re-analysis of the deposited data

How the results depend on the processing

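CTGF and CYR61 stayed above 0 and INHBA below 0 in each of the scalings, tests and left-out libraries tried. Against the scaling used here, log2 fold changes rose by a median of 1.20 with TMM over the table and with DESeq2 size factors. The median rise was 0.86 with upper-quartile factors and 0.34 with total counts. Which level between the groups is right was not tested. CTGF went from 1.20 to 2.39 with TMM, 2.40 with DESeq2 size factors, 2.06 with upper-quartile factors and 1.54 with total counts. CYR61 went from 1.02 to 2.22, 2.22, 1.89 and 1.37 in the same order. INHBA lost its call at -1.17 with TMM and -1.15 with DESeq2 size factors. Features called lower numbered 480, 476 and 910 under TMM, DESeq2 size factors and upper-quartile factors, against 1749; features called higher stayed within 1.5 times of 713. Under both TMM and DESeq2 size factors, lower calls numbered 0 for Hippo genes, the YAP/TAZ signature, ligands, receptors, SMADs and immediate-early genes, 2 for matricellular genes, 2 for inhibitors, 3 for TGF-beta targets and 1 for integrins. With upper-quartile factors they numbered 0 for the signature, receptors, SMADs and immediate-early genes, 1 for ligands, 3 for matricellular genes, 3 for TGF-beta targets and 2 for integrins. Log2 fold changes turned positive under TMM and DESeq2 size factors for WWC3 (0.052 and 0.060), FBLN1 (0.14 and 0.14), GDF15 (0.097 and 0.10), LTBP4 (0.075 and 0.083), BAMBI (0.20 and 0.21), FSTL1 (0.17 and 0.18), ITGB8 (0.071 and 0.083) and ITGA7 (0.091 and 0.0999), and for SMAD3 with DESeq2 size factors (0.0054).

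Adjusted over all annotated genes, CTGF (1.20), CYR61 (1.02) and INHBA (-2.37) lost their calls. Calls then numbered 0 higher and 1 lower in the signature, 1 higher in the CCN family, 0 higher and 1 lower among ligands, 1 higher and 3 lower among TGF-beta targets, and 0 among receptors and immediate-early genes. With each library left out in turn, log2 fold changes ranged from 0.95 to 1.77 for CTGF, 0.80 to 1.56 for CYR61 and -3.13 to -2.10 for INHBA; higher calls ranged from 0 to 2 in the signature and 1 to 3 in the CCN family. Without WT replicate 2 and CYGB-OE replicate 1 together, added after the data were seen, they were 1.81, 1.69 and -3.11, and all 3 were called. The fit with a replicate block gave 1.34, 1.13 and -2.60 and changed none of these 3 calls. Equal numbers did not pair the libraries: the deviations of equally numbered libraries correlated at -0.01, -0.07 and 0.00. Depth cannot be judged from a partial table.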

Other observations

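Integrins are the main receptors of CCN proteins, and of 26 integrin chains 9 were in the table, 3 called higher and 6 lower, with a median log2 fold change of -1.13; this split matches that of all features tested, 28.9% higher and 70.9% lower. Of the 6 lower calls, 1 was left under TMM over the table: ITGB8 and ITGA7 lay above 0, and ITGB4, at -0.11, was among those that lost their call. ITGA6, a laminin-binding chain that also serves as a CCN receptor, had 16226, 15450 and 16053 normalized counts in CYGB-OE replicates 1 to 3, against 6620, 7452 and 7004 in WT replicates 1 to 3; edgeR gave a log2 fold change of 1.18 (SE 0.08, adjusted p = 6.54e-06). ITGA2, a collagen-binding chain, had 6631, 3426 and 3461 in CYGB-OE against 1848, 2081 and 2143 in WT (log2 fold change 1.15). Unlike INHBA, ITGA2 was farthest from WT in CYGB-OE replicate 1. ITGA8 averaged 309 in CYGB-OE and 7.98 in WT (5.21). ITGB4, the partner of ITGA6 in hemidesmosomes, averaged 700 in CYGB-OE and 1738 in WT (-1.31).

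Of 32 immediate-early genes, JUNB was the 1 in the table, so most genes that share the serum response of CYR61 were not analysed here. Marker genes of other cell types moved both ways: KRT14, the 1 of 8 keratinocyte markers in the table, averaged 62.0 normalized counts in CYGB-OE and 16.6 in WT. KDR and TIE1, 2 of 7 endothelial markers, summed to 16.8 to 34.1 in CYGB-OE libraries and 166 to 191 in WT libraries. Of 8 leukocyte markers 3 were in the table, with sums of 276 to 413 in CYGB-OE and 319 to 386 in WT, which hide changes in opposite directions. LYZ, which encodes lysozyme, averaged 289 in CYGB-OE and 51.3 in WT, the integrin chain ITGAX 64.5 in CYGB-OE and 203 in WT, and the integrin chain ITGAM 2.13 in CYGB-OE and 94.2 in WT. Their part in the levels of CTGF, CYR61 and INHBA was not tested.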
